A study of Mus musculus with 8 samples.

Results

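The clock genes described here were Arntl, Clock, Npas2, Per1, Per2, Per3, Cry1, Nr1d1, Dbp and Ciart, 10 of the 41128 genes in the deposited table. They were chosen by symbol, each was found once, and all 10 were among the 15771 genes that passed the filter on low counts. The RNA came from the corpus callosum, the large white matter tract between the hemispheres, of PLP-150Q mice. These mice make a fragment of mutant huntingtin in oligodendrocytes, driven by a promoter active in these cells, so both groups carry the transgene, and no wild-type group was analysed here. The 4 LAQ libraries (LAQ 5 to 8) came from mice given 5 mg/kg LAQ for 2 months from the age of 3 months, and the 4 control libraries (control 1 to 4) from mice given purified water over the same time. All mice were 5 months old at the end. LAQ is read here as laquinimod, an oral immunomodulator. With 4 treated and 4 control mice in the stated design, each library is read as 1 mouse. The labels give neither the time of day of dissection nor a sex, litter or batch.

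The circadian clock is a feedback loop of transcription that runs in nearly every cell, glia and neurons of white matter included. Arntl (BMAL1) pairs with Clock or its paralogue Npas2, and the pair switches on genes with an E-box in their promoters, among them the Per, Cry, Nr1d1, Dbp and Ciart genes. The Per, Cry and Ciart proteins then block the pair, while Nr1d1 (REV-ERB alpha) represses Arntl through elements known as ROREs. Transcripts of most of these E-box targets and of Arntl therefore peak at opposite times of day. A single sampling captures only a moment of the cycle. Because no dissection time is given, an effect of LAQ and a difference in the time of sampling cannot be told apart.

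The LAQ libraries held 9634156 to 12021429 counted reads and the control libraries 8790749 to 11972197. Each member had between 110 and 2321 reads in a library, so every library informed every member. LAQ 7 stood apart from the other LAQ libraries: the chi-square per degree of freedom of its gene counts against LAQ 5, 6 and 8 was 16.1 to 25.6, against 7.87 to 8.93 among those 3 and 4.24 to 6.07 among the control libraries. Results that rest on it are given with and without it. Levels are given in CPM, the read counts scaled to library size with TMM factors, and differences are log2 fold changes of LAQ over control from edgeR's quasi-likelihood test, with p-values adjusted over all genes tested. Gene positions are on GRCm38, and all 10 members are annotated as protein-coding.

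Of the 10 clock genes, 8 had a lower mean level in LAQ and 2 (Arntl and Cry1) a higher one, where 50.3% of all tested genes had a negative log2 fold change. The largest differences were in Ciart and Per1, both repressors of the loop, at 0.718 and 0.723 times the control level, followed by Npas2 at 0.854 and Nr1d1 at 0.858 times. The median log2 fold change of the 10 was -0.17, beside -0.0012 over all tested genes. None of the 10 passed an adjusted edgeR p of 0.05, and neither did any other gene (0 of 15771, 0%), while 1750 genes (11.1%) had an unadjusted p under 0.05. Of the members, 3 of 10 had an unadjusted p under 0.05, all lower in LAQ: Nr1d1, Per1 and Ciart. Over all genes the share lower in LAQ at that p was 6.33%. Without control 2 the members' count was 1 of 10 (Nr1d1), against 1254 of the 15945 genes tested in that fit. DESeq2 called 129 of the 15258 genes it adjusted (0.845%), and 0 of the 10 members, whose smallest adjusted p by DESeq2 was 0.214.

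Without LAQ 7, the 8 members with a lower mean in LAQ all stood further below control, Nr1d1 and Clock by little. Per1 then passed the edgeR test (adjusted p = 0.0492), 1 of 10 members against 2.13% of the 15898 genes tested in that fit. Of the members, 6 of 10 had an unadjusted p under 0.05 (Per1, Ciart, Per2, Dbp, Nr1d1 and Npas2), against 19.7% of those genes. The median log2 fold change of the 10 was then -0.26, and Cry1 was at 0.01. With the score of the cortical neuron markers as a covariate, 4 of 10 members (Per1, Ciart, Per2 and Dbp) had an unadjusted p under 0.05, against 15.5% of all tested genes, and Nr1d1 did not.

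**Figure D1:**
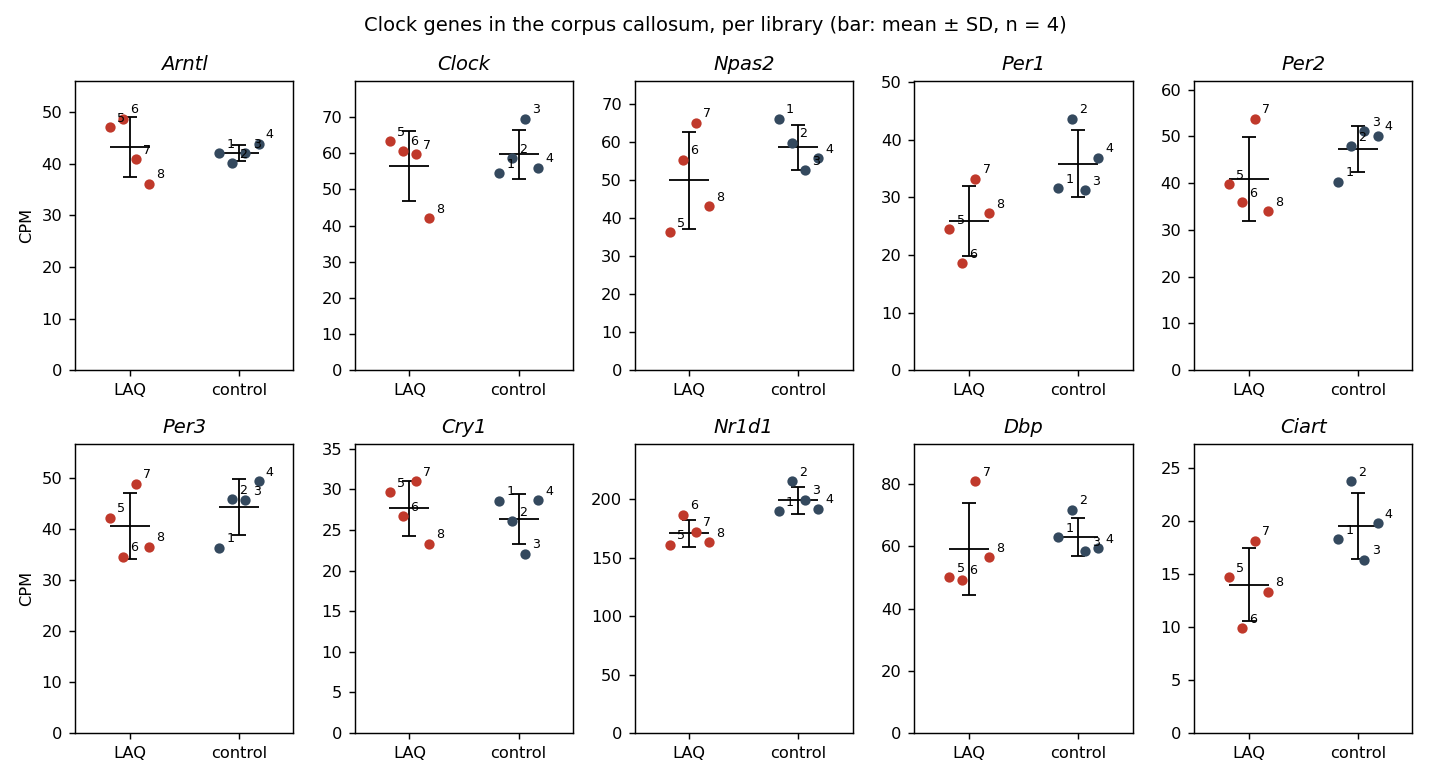
Level of each clock gene in CPM (vertical axis, from 0) in the 4 LAQ libraries (red) and the 4 control libraries (dark blue), with library numbers beside the points and bars for mean ± SD. Only the groups of Nr1d1 do not overlap. LAQ 7 is the highest LAQ library for Npas2, Dbp, Ciart, Cry1 and the Per genes.

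Among the activators, Arntl, on chromosome 7 from 113207465 to 113314126, stood at 47.1, 48.7, 40.8 and 36.1 CPM in LAQ 5 to 8, against 42.0, 40.1, 42.0 and 43.9 CPM in control 1 to 4. The control libraries lay close together, and the LAQ libraries fell on both sides of them. The log2 fold change was 0.04, with a 95% interval of -0.17 to 0.25, an unadjusted p of 0.693 and an edgeR adjusted p of 0.917. That interval runs from 0.886 to 1.19 times the control level. Without LAQ 6 the log2 fold change was -0.02, and without LAQ 8 it was 0.12.

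Clock, on chromosome 5 from 76209868 to 76304792, had 63.4, 60.7, 59.8 and 42.1 CPM in LAQ 5 to 8, against 54.6, 58.6, 69.6 and 56.0 CPM in control 1 to 4. LAQ 8 was the lowest of all 8 libraries, and the other LAQ libraries lay within the control range. The log2 fold change of Clock was -0.08 (95% interval -0.35 to 0.20, edgeR adjusted p = 0.863), and it was 0.04 without LAQ 8 and 0.0094 without control 3. The direction of Clock therefore turned on either library.

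Npas2, on chromosome 1 from 39193731 to 39363236, can take the place of Clock in forebrain neurons. Its level was 36.3, 55.4, 65.1 and 43.2 CPM in LAQ 5 to 8, against 66.2, 59.9, 52.6 and 55.9 CPM in control 1 to 4. LAQ 5 and 8 were below every control library and LAQ 7 was near the top of the control range. Npas2 had a log2 fold change of -0.23 ± 0.15 (SE; edgeR adjusted p = 0.613), which was -0.38 ± 0.13 without LAQ 7 (adjusted p = 0.122) and -0.10 without LAQ 5. The summed level of the 11 striatal neuron markers moved over the same libraries, with 821 CPM in LAQ 5 and 5077 CPM in LAQ 7, against 2050 to 2674 CPM in the control libraries. The summed level of the 9 interneuron markers was 875 CPM in LAQ 5 and 1274 CPM in LAQ 7, against 939 to 1063 CPM in control. Over the 8 libraries, r of Npas2 was 0.80 with the score of the striatal markers and 0.77 with that of the interneuron markers. Its size was similar for other lists, at 0.80 for the microglia markers and -0.81 for the hippocampal markers. The part of any of these cells in the Npas2 values was not tested. In bulk tissue fewer cells of a type and less RNA per cell cannot be told apart.

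Per1, on chromosome 11 from 69095217 to 69109960, encodes a repressor that is also induced by neuronal activity and glucocorticoids. It stood at 24.5, 18.5, 33.3 and 27.2 CPM in LAQ 5 to 8, against 31.6, 43.7, 31.2 and 36.9 CPM in control 1 to 4. LAQ 5, 6 and 8 were below every control library, while LAQ 7 lay inside the control range. Per1 averaged 25.9 ± 6.12 CPM in LAQ and 35.9 ± 5.81 CPM in control (SD, n = 4 each). The log2 fold change was -0.47 ± 0.17 (SE), with a 95% interval of -0.83 to -0.11, an unadjusted edgeR p of 0.0151 and an adjusted p of 0.349. Without LAQ 7 it was -0.62 ± 0.15 (adjusted p = 0.0492), the one fold change of a member that passed the test in any setting tried. With the score of the cortical neuron markers, which was lowest in LAQ 7, as a covariate, Per1 stood at -0.79 ± 0.18 (adjusted p = 0.0995).

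Ciart, on chromosome 3 from 95878503 to 95882251, encodes CHRONO, a repressor that binds BMAL1. It stood at 14.7, 9.90, 18.1 and 13.3 CPM in LAQ 5 to 8, against 18.3, 23.7, 16.4 and 19.8 CPM in control 1 to 4. The order of the libraries was nearly that of Per1, with LAQ 6 lowest, control 2 highest and LAQ 7 inside the control range. Ciart averaged 14.0 ± 3.40 CPM in LAQ and 19.5 ± 3.13 CPM in control (SD, n = 4 each). The log2 fold change was -0.48 ± 0.18 (SE), with a 95% interval of -0.86 to -0.09, an unadjusted edgeR p of 0.0193 and an adjusted p of 0.361. Without LAQ 7 it was -0.63 ± 0.16 (adjusted p = 0.0638), and with the cortical score as a covariate -0.75 ± 0.21 (adjusted p = 0.149). Per1 and Ciart were both lowest in LAQ 6, where the 9 endothelial and mural markers also had their lowest sum, 266 CPM. That sum was 355 CPM in LAQ 5, 540 CPM in LAQ 7 and 463 CPM in LAQ 8, against 430 to 546 CPM in control. Over the 8 libraries, r with the score of these markers was 0.89 for Per1 and 0.81 for Ciart. Other lists had values of similar size, at -0.79 and -0.74 for the hippocampal and 0.75 and 0.73 for the interneuron markers. The part of any of these cells in the Per1 and Ciart values was not tested.

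Promoter sequences are shown for Ciart and Per1, the members furthest below control, and for Cry1, Nr1d1 and Per3, whose windows hold the other clock elements found upstream of a start. RefSeq's table of GRCm38.p6 gave 13 start windows (250 bases before to 50 after) for 9 of the 10 members, Per2 being without one. The motifs were searched on both strands: the E-box CACGTG, the E-prime box CACGTT, the D-box TTATGTAA or TTACGTAA, the RORE core TAGGTCA or TGGGTCA, and the cAMP response element TGACGTCA. The 250 bases upstream of the start site follow, 5′ to 3′ on the strand of the gene, with matches to these motifs in capitals.
Ciart, chr3:95882229-95882478, minus strand: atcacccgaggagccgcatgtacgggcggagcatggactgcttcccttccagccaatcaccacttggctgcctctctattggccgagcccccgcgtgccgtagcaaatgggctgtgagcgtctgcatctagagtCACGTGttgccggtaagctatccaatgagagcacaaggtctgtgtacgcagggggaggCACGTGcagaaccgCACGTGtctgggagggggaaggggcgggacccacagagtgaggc
Per1, chr11:69098699-69098948, plus strand: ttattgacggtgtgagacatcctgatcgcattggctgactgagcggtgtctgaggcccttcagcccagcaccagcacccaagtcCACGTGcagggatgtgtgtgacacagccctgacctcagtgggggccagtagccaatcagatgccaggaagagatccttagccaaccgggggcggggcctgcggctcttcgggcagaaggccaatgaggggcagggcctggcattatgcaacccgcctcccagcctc
Cry1, chr10:85185055-85185304, minus strand: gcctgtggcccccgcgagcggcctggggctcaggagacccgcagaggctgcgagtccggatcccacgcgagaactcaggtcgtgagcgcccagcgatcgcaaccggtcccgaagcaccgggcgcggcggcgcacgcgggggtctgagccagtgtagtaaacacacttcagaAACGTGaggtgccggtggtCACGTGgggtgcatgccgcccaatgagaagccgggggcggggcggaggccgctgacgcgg
Nr1d1, chr11:98775378-98775627, minus strand: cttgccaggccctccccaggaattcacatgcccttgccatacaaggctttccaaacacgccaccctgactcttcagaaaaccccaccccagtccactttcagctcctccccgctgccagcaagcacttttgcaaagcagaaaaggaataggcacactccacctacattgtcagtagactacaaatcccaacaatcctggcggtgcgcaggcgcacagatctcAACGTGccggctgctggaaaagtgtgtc
Per3, chr4:151044666-151044915, minus strand: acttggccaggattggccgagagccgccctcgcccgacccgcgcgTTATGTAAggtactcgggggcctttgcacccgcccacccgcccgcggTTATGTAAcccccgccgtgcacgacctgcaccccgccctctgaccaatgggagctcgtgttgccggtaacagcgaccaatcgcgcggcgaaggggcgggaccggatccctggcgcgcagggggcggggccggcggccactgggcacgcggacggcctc

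Positions count from the start site, negative ones before it, and name the first base of a match. The Ciart window held 3 E-boxes, at -116, -58 and -44, and the first window of Per1 held 1, at -166. Cry1 had an E-box at -60 and an E-prime box at -79, and Nr1d1 an E-prime box at -28, both E-prime boxes reading AACGTG since they lie on the other strand. Per3 had 2 D-boxes, at -205 and -158. The second window of Arntl had a RORE core at 30, after the start site and outside the stretches shown. Of the 13 windows, 3 held an E-box, 2 an E-prime box, 1 a D-box, 1 a RORE core and 0 a cAMP response element. Over all 32851 windows of the table the shares were 7.15% for the E-box, 4.68% for the E-prime box, 1.06% for the D-box, 6.45% for the RORE core and 1.79% for the cAMP response element. The E-box windows of Ciart, Per1 and Cry1 belong to genes with log2 fold changes of -0.48, -0.47 and 0.07. A match describes the letters only, and sequence outside these windows was not searched.

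**Figure D2:**
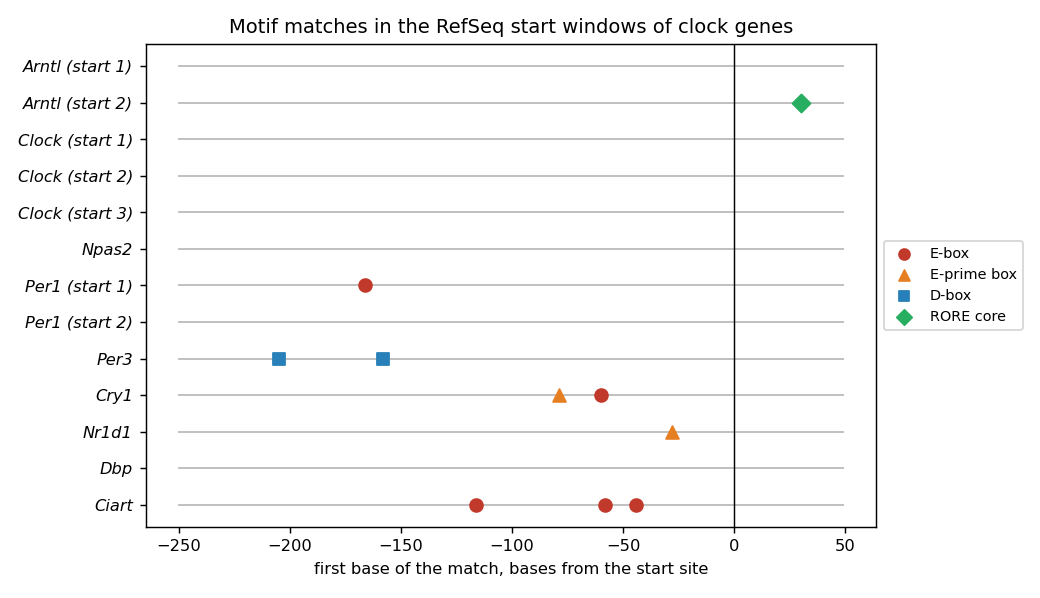
Position of the first base of each motif match (horizontal axis, bases from the start site) in the 13 RefSeq start windows of 9 clock genes. Ciart has 3 E-boxes within 116 bases of its start, and the windows of Clock, Npas2 and Dbp have no match.

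Per2 and Per3, the other Per paralogues, differed less. Per2, on chromosome 1 from 91415982 to 91459324, ranged from 34.0 to 53.8 CPM in LAQ and from 40.3 to 51.1 CPM in control. LAQ 5, 6 and 8 were below every control library for Per2, and LAQ 7 was above them all. Its log2 fold change was -0.21 ± 0.14 (SE, edgeR adjusted p = 0.597), or -0.37 ± 0.10 without LAQ 7 (adjusted p = 0.0734) and -0.41 ± 0.16 with the cortical score as a covariate (adjusted p = 0.244). Per3, on chromosome 4 from 151003652 to 151044665, ranged from 34.6 to 49.003 CPM in LAQ and from 36.4 to 49.4 CPM in control, so the groups overlapped over nearly their whole range. Its log2 fold change was -0.13 ± 0.12 (adjusted p = 0.753), or -0.23 ± 0.11 without LAQ 7. Cry1, a light-independent repressor on chromosome 10 from 85131700 to 85185064, ranged from 23.3 to 31.0 CPM in LAQ and from 22.1 to 28.6 CPM in control. Cry1 had a log2 fold change of 0.07 ± 0.12 (95% interval -0.19 to 0.33, adjusted p = 0.867), which was -0.00014 without control 3 and 0.14 without LAQ 8.

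Nr1d1, the nuclear receptor that represses Arntl, on chromosome 11 from 98767932 to 98775333, had the highest level and the smallest relative spread of the members. It stood at 161, 187, 172 and 163 CPM in LAQ 5 to 8, against 190, 215, 200 and 192 CPM in control 1 to 4. All 4 LAQ libraries, LAQ 7 included, were below all 4 control libraries, by a narrow margin between LAQ 6 and control 1. Nr1d1 was the 1 member of 10 without overlap and lower in LAQ, a pattern that 3.61% of all tested genes showed. It averaged 171 ± 11.7 CPM in LAQ and 199 ± 11.6 CPM in control (SD, n = 4 each). The log2 fold change was -0.22 ± 0.07 (SE), with a 95% interval of -0.38 to -0.06, an unadjusted edgeR p of 0.0098 and an adjusted p of 0.305. It was -0.22 ± 0.07 without LAQ 7 as well, and ranged from -0.27 to -0.18 when each library was left out in turn. With the cortical score as a covariate it was -0.16 ± 0.09, with a 95% interval of -0.36 to 0.03 and an unadjusted edgeR p of 0.0915, so that the interval included 0. Of the exonic bases of Nr1d1, 8.55% overlap the thyroid hormone receptor gene Thra on the opposite strand. For Thra the log2 fold change was -0.34 ± 0.13 (SE; adjusted p = 0.387), and since the strand setting of the counting was not given, reads of Nr1d1 and Thra in the shared 263 bases cannot be told apart.

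The 9 ependymal and choroid plexus markers ran opposite to Nr1d1 in the extreme libraries. Their sum was highest in LAQ 5 (3639 CPM) and LAQ 8 (3516 CPM), the libraries with the lowest Nr1d1, and lowest in control 2 (398 CPM), the library with the highest. Over the groups that sum ranged from 1303 to 3639 CPM in LAQ and from 398 to 2490 CPM in control, and all 9 markers were higher in LAQ by mean. Over the 8 libraries, r of Nr1d1 was -0.92 with the score of these markers. Other lists had values of large size too. These were -0.83 for the myelin and oligodendrocyte markers, 0.78 for the immediate early genes and 0.72 for the cortical excitatory markers. The part of any of these lists in the Nr1d1 values was not tested.

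Dbp, on chromosome 7 from 45705088 to 45710203, encodes a transcription factor that carries clock output to D-box genes. It stood at 50.01, 49.3, 80.9 and 56.5 CPM in LAQ 5 to 8, against 62.9, 71.7, 58.3 and 59.4 CPM in control 1 to 4. LAQ 5, 6 and 8 were below every control library, and LAQ 7 was above them all. The log2 fold change of -0.09 ± 0.14 (SE, edgeR adjusted p = 0.860) thus depended on LAQ 7, and it was -0.28 ± 0.09 without it (adjusted p = 0.112). It was -0.01 without LAQ 6, and with the cortical score as a covariate it was -0.36 ± 0.15 (adjusted p = 0.291). LAQ 7, the highest library for Dbp, also had the highest sums of the striatal (5077 CPM) and interneuron markers (1274 CPM). In control these ranged from 2050 to 2674 CPM and from 939 to 1063 CPM. The same library had the highest myelin and oligodendrocyte sum (17149 CPM) and the lowest cortical excitatory sum (2532 CPM). Over the 8 libraries, r of Dbp was 0.80 with the striatal and 0.87 with the interneuron score. It was of similar size for other lists, at -0.80 for the hippocampal and 0.75 for the endothelial and mural markers. The part of any of these cells in the Dbp values was not tested. Of the exonic bases of Dbp, 18.01% overlap the sphingosine kinase gene Sphk2 on the other strand, which had a log2 fold change of -0.09 ± 0.07 (SE), and reads of the shared 539 bases cannot be told apart either.

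**Figure D3:**
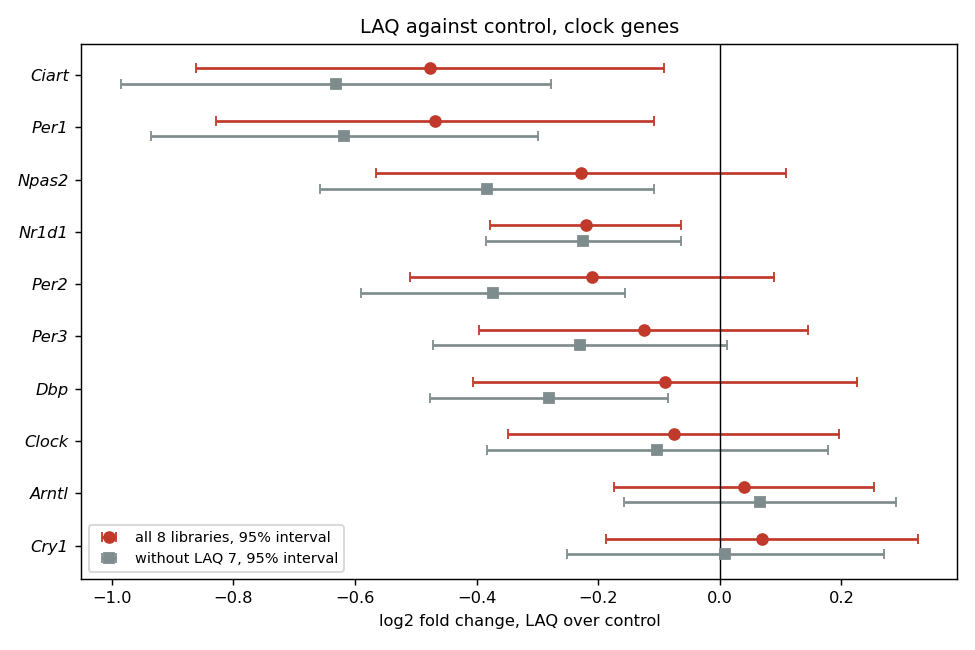
Log2 fold change of LAQ over control (horizontal axis) for the 10 clock genes, with 95% intervals, from all 8 libraries (red circles) and without LAQ 7 (grey squares). With all 8 libraries the intervals of Ciart, Per1 and Nr1d1 lie below 0. Without LAQ 7 those of Npas2, Per2 and Dbp do so too.

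Per kilobase of exon, the order of the members was similar in both groups. In LAQ, Nr1d1 led with 55.6 ± 3.79 CPM per kilobase (SD, n = 4), followed by Dbp with 19.8 ± 4.95 and Npas2 with 10.4 ± 2.68. Control had 64.8 ± 3.75 for Nr1d1, 21.1 ± 2.03 for Dbp and 12.2 ± 1.22 for Npas2, in CPM per kilobase. The other 7 lay between 4.12 (Clock) and 8.28 (Cry1) CPM per kilobase in LAQ, and between 4.35 (Clock) and 8.64 (Ciart) in control. In LAQ the steps from Nr1d1 to Dbp and from Dbp to Npas2 were larger than the summed SDs of the neighbours, and no lower step was. In control the steps from Npas2 to Ciart and from Arntl to Per3 exceeded the summed SDs as well. Ciart ranked 6 in LAQ and 4 in control, and in LAQ it could not be told from either neighbour by this measure.

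The members varied between libraries of one group more than most genes of their level, except Nr1d1. The pooled SD of log2 CPM within the groups was 0.28 for Npas2, 0.29 for Per1 and 0.25 for Dbp, at the percentiles 94.9, 93.1 and 92.9 of tested genes within 0.5 of the same mean log2 CPM. Clock (0.22), Per2 (0.24), Ciart (0.30) and Per3 (0.21) lay at the percentiles 89.7, 89.6, 87.0 and 84.8. Cry1 (0.18) lay at the percentile 66.3, Arntl (0.14) at 58.4 and Nr1d1 (0.09) at 38.0. Single libraries carried part of this spread: it was 0.12 for Dbp and 0.14 for Per2 without LAQ 7, and 0.12 for Clock and 0.09 for Arntl without LAQ 8. For all 10 members the SD of log2 CPM was larger within LAQ than within control, as it was for 63.7% of all tested genes. Without LAQ 7 this held for 6 of the 10 and for 52.7% of all tested genes, and the difference was not tested. The SD was 0.37 in LAQ and 0.14 in control for Npas2, and 0.20 in LAQ and 0.05 in control for Arntl, or 0.31 and 0.24 in LAQ without LAQ 7. For Dbp it was 0.33 in LAQ and 0.13 in control, but 0.11 in LAQ without LAQ 7. Per2, Per3 and Cry1 were the other members whose SD in LAQ was below that of control without LAQ 7.

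Across the 8 libraries, Per1 and Ciart varied together. Pearson's r of their log2 CPM was 0.974 (exact permutation p = 0.000273, adjusted over all 45 pairs of members to 0.0123), and Spearman's rho was 0.952 (exact permutation p = 0.00114, adjusted 0.0513). Without control 2 and LAQ 6, the libraries farthest from the median of Per1, r was 0.881 (exact permutation p = 0.0208), and with values centred on the group means it was 0.949. With 1 library left out in turn r was 0.941 to 0.986, and the adjusted exact permutation p was above 0.05 without control 2 (0.0982), control 3 (0.0536), control 4 (0.0893) or LAQ 6 (0.152). Among the 13035 tested genes that had an established symbol and averaged 1 or more on the log2 CPM scale, Ciart had the highest r with Per1, ahead of Des (0.973), Ccnl1 (0.964), Impdh1 (0.961) and Ankrd11 (0.956). Des encodes desmin, a filament protein of muscle and mural cells. The pair was singled out after its values were seen.

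Per2 and Per3 formed the next closest pair, with r of 0.918 (exact permutation p = 0.00327, adjusted 0.0737) and rho of 0.762 (exact permutation p = 0.0368, adjusted 0.276). Without LAQ 6 and LAQ 8 their r was 0.853. Of the 45 pairs, 36 had a positive and 9 a negative r, 8 had an exact permutation p under 0.05, and 1 (Per1 with Ciart) passed the adjustment. The 8 pairs lay among Per1, Per2, Per3, Ciart and Dbp, and each of them was positive. Values of r as high were common among the 13035 genes ranked above. By r with Per1, Dbp ranked 580, Per2 873 and Per3 883, and by r with Dbp, Ciart ranked 748. The share over other pairs of genes was not computed.

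**Figure D4:**
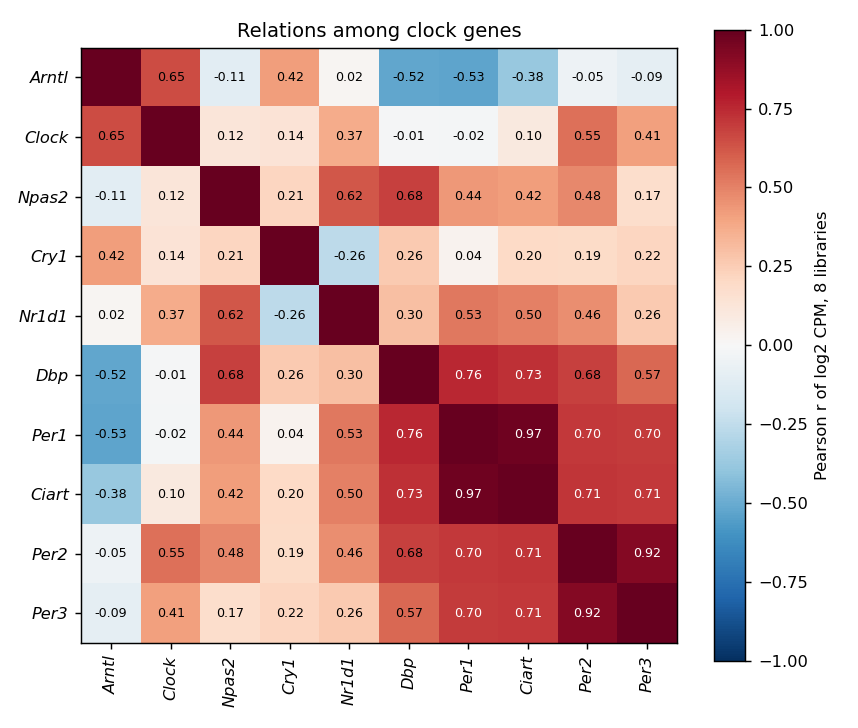
Pearson's r of log2 CPM over the 8 libraries for each pair of clock genes, on a scale from -1 (blue) to 1 (red). Per1 and Ciart (0.97) and Per2 and Per3 (0.92) have the highest values, and Arntl has its lowest values with Per1 (-0.53) and Dbp (-0.52).

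Arntl was compared with each of the other 9 members, since it and most of the E-box targets are known to run in opposite phase. That expectation does not cover its partners Clock and Npas2, nor every E-box target. Its r was -0.526 with Per1 and -0.521 with Dbp (exact permutation p of 0.175 and 0.186). The rho of Arntl was -0.476 with Per1 and -0.548 with Dbp (exact permutation p of 0.243 and 0.171). With Ciart its r was -0.377 and with Clock 0.653 (exact permutation p of 0.356 and 0.0825), and rho was -0.286 and 0.452 (exact permutation p of 0.501 and 0.267). None of the 9 relations passed the adjustment over them, with adjusted p of 0.559 to 0.957 for r. For the other 5 members r lay between -0.109 (Npas2) and 0.418 (Cry1).

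These relations depended on LAQ 6, where Arntl was highest (48.7 CPM), and on LAQ 8, in which Arntl (36.1 CPM) and Clock (42.1 CPM) were both at their lowest. Without LAQ 8 alone r of Arntl was -0.892 with Dbp, -0.886 with Per1 and -0.858 with Ciart (exact permutation p adjusted over the 9 relations 0.025 for each), and 0.149 with Clock. Without LAQ 6 and LAQ 8, the libraries farthest from the median of Arntl, r was -0.864 with Dbp and -0.766 with Per1, and 0.161 with Clock. Without LAQ 6 alone r of Arntl was -0.161 with Per1, -0.333 with Dbp and 0.123 with Ciart. LAQ 8 also had the lowest sum of the 7 oligodendrocyte precursor markers (928 CPM, against 1021 to 1161 CPM in the other LAQ libraries and 1109 to 1256 CPM in control). The sums of the thalamic markers (221 CPM) and of the astrocyte markers (5492 CPM) were lowest in LAQ 8 as well. The thalamic sum was nearly as low in LAQ 6 (229 CPM), where Arntl was highest. Over the 8 libraries, r of Arntl was 0.26 with the score of the precursor markers, 0.01 with the thalamic and 0.45 with the astrocyte score. For Clock these values were 0.59, 0.37 and 0.52. The part of any of these cells in the values of Arntl and Clock was not tested.

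**Figure D5:**
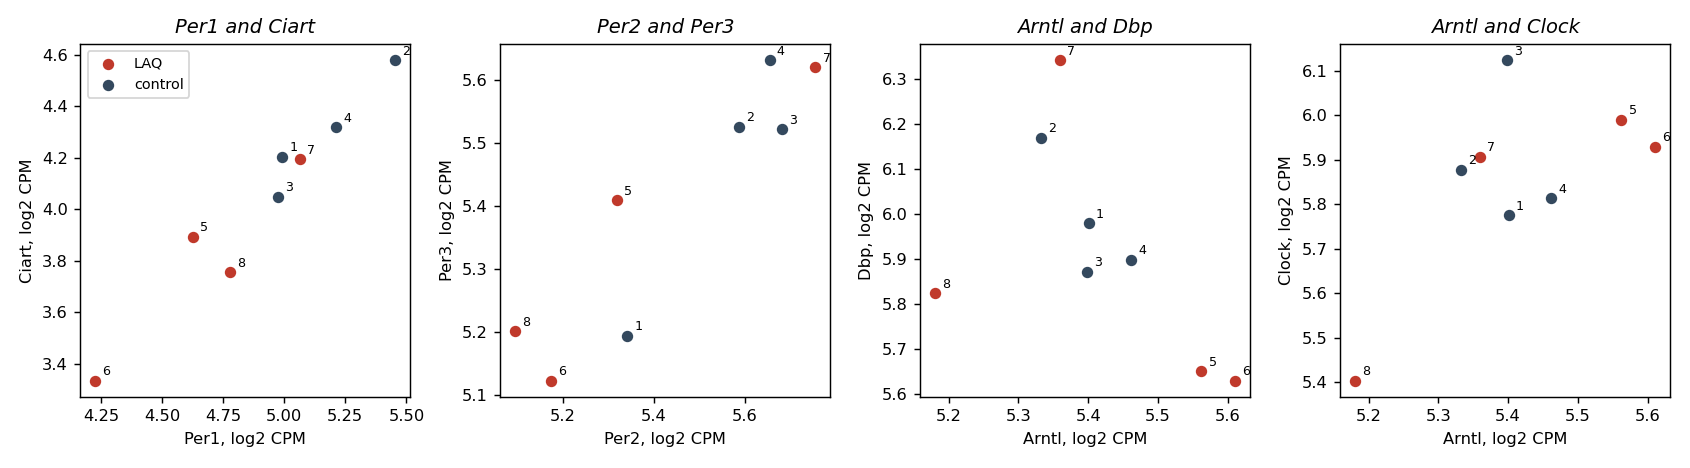
Log2 CPM of 4 pairs of clock genes, 1 point per library (LAQ red, control dark blue, library numbers beside the points). Per1 and Ciart lie along one line from LAQ 6 to control 2. Arntl and Dbp run in opposite directions in 7 libraries, and LAQ 8 lies apart from them.

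Ratios of raw counts within a library do not depend on the scaling between libraries. The log2 ratio of Nr1d1 to Arntl was 1.78, 1.94, 2.08 and 2.18 in LAQ 5 to 8, against 2.18, 2.43, 2.25 and 2.13 in control 1 to 4. LAQ 5, 6 and 7 were below every control library, and LAQ 8 lay within their range. The log2 ratio of Per1 to Arntl averaged -0.76 ± 0.51 in LAQ and -0.24 ± 0.26 in control, and that of Ciart to Arntl -1.65 ± 0.48 in LAQ and -1.12 ± 0.26 in control (SD, n = 4 each). For Dbp to Arntl the means were 0.43 ± 0.46 in LAQ and 0.58 ± 0.18 in control, less than 1 SD apart. LAQ 5 and LAQ 6 had the lowest values of these ratios, and LAQ 7 and LAQ 8 lay within or above the control range of the Dbp ratio.

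Other genes of the loop were taken from a list of 11, all of which were tested. Of these, 8 were lower and 3 higher in LAQ, with a median log2 fold change of -0.11. The list held 5 genes at an unadjusted edgeR p under 0.05, all lower in LAQ, where 6.33% of all tested genes were lower at that p, and 0 past the adjusted threshold. Rora, which activates Arntl through ROREs in competition with Nr1d1, stood at 79.9, 68.2, 97.7 and 76.3 CPM in LAQ 5 to 8, against 140, 109, 95.8 and 108 CPM in control 1 to 4. LAQ 7 lay just inside the control range, and the other LAQ libraries were below it. Rora had a log2 fold change of -0.49 ± 0.13 (SE, edgeR adjusted p = 0.228), and it passed the test by DESeq2 (adjusted p = 0.0470), which called 0.845% of all genes. Its relative Rorb stood at -0.41 ± 0.13, Timeless, which acts in replication and has a debated clock role in mammals, at -0.52 ± 0.19, and the D-box factor Hlf at -0.24 ± 0.10. The 4 had an edgeR adjusted p of 0.228 to 0.433.

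Rora is also a thalamic marker and Rorb a cortical one. The sum of the 9 thalamic markers was 221 to 379 CPM in LAQ and 348 to 495 CPM in control, with 9 of 9 lower. The sum of the 14 cortical excitatory markers was 2532 to 3995 CPM in LAQ and 3466 to 3942 CPM in control, with 10 of 14 lower. The thalamic sum and count include Rora and the cortical ones include Rorb, so they are not independent of these 2 genes. The part of these neurons in the 2 genes was not tested. Without LAQ 7, Rora, Rorb and Hlf passed the edgeR test, 3 of 11 genes, against 2.13% of all genes in that fit.

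Of 12 genes that modify clock proteins, such as kinases and ubiquitin ligases, 7 were higher and 5 lower in LAQ, with a median log2 fold change of 0.07. The paraspeckle protein gene Nono stood at 0.15 ± 0.07 (SE) and Fbxw11, a ubiquitin ligase subunit that acts on Per proteins, at 0.18 ± 0.08. The Per kinase gene Csnk1e stood at -0.12 ± 0.06. Nono and Fbxw11 had an unadjusted edgeR p under 0.05, where 752 of all 15771 tested genes were higher at that p. Of the 12, 0 passed the adjusted threshold.

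Of 12 genes reported as clock outputs, 9 were tested, of which 4 were higher and 5 lower, with a median of -0.0041. Tspo, a protein of the outer mitochondrial membrane, stood at 0.29 ± 0.12 (SE) and Nampt, the rate-limiting enzyme of NAD salvage, at 0.24 ± 0.10. Pdk4, a kinase that inhibits pyruvate dehydrogenase, stood at -0.21 ± 0.11 and the glucocorticoid-induced Tsc22d3 at -0.24 ± 0.13. Tspo and Nampt had an unadjusted edgeR p under 0.05, where 752 of all 15771 tested genes were higher at that p. None of the 9 passed the adjusted threshold (0 of 9) with all 8 libraries. Tsc22d3 did so without LAQ 7, against 2.13% of all genes in that fit.

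Per1 also responds to neuronal activity and to glucocorticoids, and genes of both responses were taken from lists. Of 14 immediate early genes, 13 were lower and 1 higher in LAQ, where 50.3% of all tested genes were lower, with a median log2 fold change of -0.24. In this list 4 of 14 had an unadjusted edgeR p under 0.05, all lower, against 6.33% of all tested genes: Arc at -0.54 ± 0.15 (SE), Fosb at -0.75 ± 0.31, Egr3 at -0.25 ± 0.11 and Egr4 at -0.39 ± 0.17. Arc passed the test by DESeq2 (adjusted p = 0.0495), which called 0.845% of the genes it adjusted. Without LAQ 7, 11 of the 14 were lower and 3 higher, where 8100 of 15898 genes were lower. In that fit 4 of the 14 were lower at an unadjusted edgeR p under 0.05, as were 1714 of all genes. Of the 14, 0 then passed the adjusted threshold, Arc included, against 2.13% of all genes. The 14 summed to 1162 to 1543 CPM in LAQ and 1352 to 2207 CPM in control, the highest being control 2, where Per1 was highest too. In LAQ the highest sum was that of LAQ 6, where Per1 was lowest. Of 14 glucocorticoid response genes, 8 were higher and 6 lower, with a median of 0.03 and 0 at an unadjusted p under 0.05. Without LAQ 7, 7 were higher and 7 lower. At an unadjusted p under 0.05, 3 were lower (19.7% of all genes in either direction in that fit). Of the 14, 1 (Tsc22d3) then passed the adjusted threshold, against 2.13% of all genes. Pdk4, Tsc22d3, Ddit4 (0.25 ± 0.16) and Cdkn1a (-0.24 ± 0.18) had the smallest p-values there. Of 9 temperature-responsive genes, 4 were higher and 5 lower, with a median of -0.0018 and 0 at an unadjusted edgeR p under 0.05. Without LAQ 7, 7 were higher and 2 lower, again with 0 at that p. The list mixes cold-inducible with heat shock genes, so its median and counts cannot show a shift that differs in direction between them. The cold-inducible Rbm3 stood at -0.17 ± 0.11 and Cirbp at -0.11 ± 0.09, and the heat shock genes Hsph1 at 0.09 ± 0.08 and Hspa8 at 0.09 ± 0.08. Without LAQ 7 the median log2 fold changes of these 3 lists were -0.18, -0.03 and 0.08.

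The labelled tissue was checked by its markers. The 14 myelin and oligodendrocyte markers summed to 13147 to 17149 CPM in LAQ and 12378 to 14191 CPM in control, and all 14 were higher in LAQ by mean, at a median log2 fold change of 0.19. Markers of astrocytes (5492 to 6017 CPM in LAQ, 5585 to 6167 CPM in control), microglia (518 to 604 CPM in LAQ, 552 to 618 CPM in control) and hippocampal neurons (536 to 848 CPM in LAQ, 413 to 605 CPM in control) were present as well. So were cortical excitatory markers (2532 to 3995 CPM in LAQ, 3466 to 3942 CPM in control) and striatal markers (821 to 5077 CPM in LAQ, 2050 to 2674 CPM in control). Ependymal and choroid plexus markers summed to 1303 to 3639 CPM in LAQ and 398 to 2490 CPM in control. Of the marker genes, Dsp alone had a library with 0 reads. A clock gene's level here is a sum over all these cells.

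Likeness over the 8 libraries was also ranked for Arntl and Dbp. With Arntl, Znrd1 (0.974), Brpf1 (0.957), Fut8 (0.955), Rasa3 (0.953) and Gabrb2 (0.949) had the highest r, and Clock ranked 647 of 13035. With Dbp, Rnf103 (0.977), Ppargc1a (0.973), a coactivator of mitochondrial genes, Aldh5a1 (0.967) and Lfng (0.955) were among the 5 highest, and Per1 ranked 615. With 8 libraries and 13035 genes such values are a description.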

How the data were processed

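Bulk RNA-seq libraries of corpus callosum from the PLP-150Q line, 4 LAQ and 4 control, were analysed. The deposited counts are whole-number reads per gene, made by the authors with STAR 2.5.2b and HTSeq, per the submitters' processing notes, which also name bcl2fastq 2.17.1.14, DESeq2 1.10.1 and the GRCm38.p3 genome. The strand setting was not given in the sources used here. A second deposited table holds the same counts divided by size factors by the authors (unit: signal), and was used for the alternative with deposited factors. Genes were kept by filterByExpr (minimum count 10, minimum total count 15) and tested with edgeR 4.0.16 in R 4.3.3 (TMM factors, quasi-likelihood test, 2-sided, Benjamini-Hochberg over 15771 genes, threshold 0.05). Log2 CPM used a prior count of 2. Alternatives used limma 3.58.1 and DESeq2 1.42.0, other scalings and filters, the score of cortical neuron markers as a covariate, and each library left out in turn. DESeq2 left the adjusted p of some genes as NA, and these stayed out of its counts.

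Correlations used exact 2-sided permutation over all pairings. All 45 pairs of members were added after the 9 relations of Arntl, and the alternatives for Per1 with Ciart and Per2 with Per3 were chosen after seeing the data. Gene positions and exon lengths came from GENCODE M21 on GRCm38, and promoter windows from RefSeq's GRCm38.p6 table. The fits were tested on simulated data. Named were all 10 members, up to 4 genes of smallest p in each list, and the 5 genes most correlated with Arntl, Dbp and Per1. Some genes that this rule names are not reported here. Members and lists were chosen with earlier results of these data known.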

Additional observations from a re-analysis of the deposited data

Results flagged for a closer look

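Clock in LAQ 8 lay far from the rest of its group, at 42.1 CPM where LAQ 5, 6 and 7 had 59.8 to 63.4 CPM. The gap was 0.832 of the range of the 4 libraries, just past Dixon's 95% limit. Among the marker lists, the summed level of the thalamic neuron markers in control 1 was 495 CPM, where the other control libraries had 348 to 352 CPM, a gap of 0.971 of the range. Rora, which is in that list, was highest in control 1 too. These were 2 of 68 groups of 4 libraries looked at, and chance alone passes the limit in about 1 group in 20.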

How the results depend on the processing

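The 10 fold changes of the members kept direction and side of the threshold under all 100 combinations of a member with another scaling, filter, tool or covariate. Genes past the threshold, 0 by edgeR, were 25 with no filter, 129 by DESeq2, 1 by voom with sample weights and 15 with the cortical score as a covariate, and 0 to 339 when each library was left out (339 without LAQ 7, 0 without any other). Members at an unadjusted p under 0.05, 3 with all libraries, were 5 by voom with sample weights, where 2553 of 15771 genes had such a p. With a library left out they were 1 to 6: 1 without control 2 (1254 of 15945 genes) and 6 without LAQ 7 (3132 of 15898 genes). Leave-one-out log2 fold changes ran from -0.0224 to 0.118 for Arntl, -0.131 to 0.0430 for Clock and -0.00014 to 0.14 for Cry1, so their sign turned when single libraries were left out, and from -0.62 to -0.34 for Per1. Leave-one-out r with Arntl ran from -0.612 to 0.391 for Npas2, -0.763 to 0.299 for Per2, -0.560 to 0.355 for Per3, -0.502 to 0.350 for Nr1d1 and -0.858 to 0.123 for Ciart, whose signs turned too. With library size alone as scaling, r of Arntl with Nr1d1 was -0.0157. Leave-one-out r stayed within 0.941 to 0.986 for Per1 with Ciart (adjusted p 0.0179 to 0.152, exact permutation) and 0.899 to 0.943 for Per2 with Per3. The cause of these shifts was not tested. No paired analysis was made, because the labels give no litter, batch or other item by which mice of the groups could be paired. With 4 libraries a group the 95% intervals are wide, that of Ciart, the widest, running from -0.86 to -0.09.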
